A study of Mus musculus with 24 samples.

Results

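Hspa5, Hsp90b1, Dnajb9, Sdf2l1, Herpud1, Pdia4, Creld2, Manf, Calr and Xbp1 are genes of protein folding in the endoplasmic reticulum (ER) and of the unfolded protein response, and their transcripts were followed here in mouse inguinal white adipose tissue, which lies beneath the skin of the groin. The 10 genes were found by symbol among the 17541 genes of the deposited table, and all 10 passed the filter on low counts. Tissue came from C57BL/6J WT mice on a high-fat diet, and each of the 24 libraries was made from 1 mouse. The 4 groups were Aged BAM15 (5 mice of 92 weeks), Aged CTRL (6 mice of 92 weeks), Young BAM15 (6 mice of 16 weeks) and Young CTRL (7 mice of 16 weeks). The compound BAM15 is a mitochondrial uncoupler: it lets respiration run without ATP synthesis. Its dose, the length of treatment and the sex of the mice are not given in the labels. The comparisons ask how age changes the depot and how BAM15 changes it at either age.

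Proteins that are secreted or placed in membranes fold inside the ER with the help of chaperones, lectins and enzymes that form disulfide bonds. When unfolded protein builds up there, the sensors IRE1, PERK and ATF6 start the unfolded protein response, in which IRE1 splices the Xbp1 transcript and the transcription factors XBP1 and ATF6 raise the genes for chaperones and for the disposal of misfolded protein. White adipocytes secrete large amounts of protein, and the response has been studied in fat of obese mice. Counts from the 3′ end of transcripts do not separate spliced from unspliced Xbp1, so splicing was not analysed here.

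Many targets of ATF6 and XBP1 are known to carry a shared promoter element, and the promoter windows of these genes were searched for it. RefSeq windows on build GRCm38.p6, from 250 bases before to 50 bases after the start of the gene, were found for 9 of the 10 genes (not Manf). The ER stress response element, searched as CCAAT and CCACG with any 9 bases between them on either strand, matched in 4 of these 9 windows, in 6 of 81 windows of other genes of ER folding (7.41%) and in 39 of all 32851 windows (0.119%). Its shorter relative ERSE-II, searched as ATTGG and CCACG with any 1 base between them on either strand, matched in Herpud1 and in 12 of 32851 windows (0.0365%). The element TGACGTGG, named for binding by XBP1, matched in 0 of 9 windows and in 222 of 32851 (0.676%). The 5 promoters with a match are shown so that the element can be read in its place. Each line gives the 250 bases before the start, 5′ to 3′ on the strand of the gene, with the matched element in capitals (Hspa5 chr2:34771840-34772089, plus strand, Hsp90b1 chr10:86705445-86705694, minus strand, Herpud1 chr8:94386179-94386428, plus strand, Creld2 chr15:88819396-88819645, plus strand, and Calr chr8:84846932-84847181, minus strand).
Hspa5: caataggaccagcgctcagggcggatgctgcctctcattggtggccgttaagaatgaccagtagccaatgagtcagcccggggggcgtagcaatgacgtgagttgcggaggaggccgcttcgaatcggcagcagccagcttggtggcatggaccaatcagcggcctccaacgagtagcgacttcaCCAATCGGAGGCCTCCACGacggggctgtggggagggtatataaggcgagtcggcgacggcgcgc
Hsp90b1: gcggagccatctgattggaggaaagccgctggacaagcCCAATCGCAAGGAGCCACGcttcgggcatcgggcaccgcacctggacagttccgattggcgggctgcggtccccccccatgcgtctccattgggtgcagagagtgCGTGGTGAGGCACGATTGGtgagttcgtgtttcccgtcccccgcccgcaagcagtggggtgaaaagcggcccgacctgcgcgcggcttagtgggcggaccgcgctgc
Herpud1: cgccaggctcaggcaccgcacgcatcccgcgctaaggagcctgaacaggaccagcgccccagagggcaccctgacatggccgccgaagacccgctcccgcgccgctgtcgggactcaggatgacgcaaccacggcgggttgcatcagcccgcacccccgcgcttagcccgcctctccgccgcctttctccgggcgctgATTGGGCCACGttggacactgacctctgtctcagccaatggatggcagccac
Creld2: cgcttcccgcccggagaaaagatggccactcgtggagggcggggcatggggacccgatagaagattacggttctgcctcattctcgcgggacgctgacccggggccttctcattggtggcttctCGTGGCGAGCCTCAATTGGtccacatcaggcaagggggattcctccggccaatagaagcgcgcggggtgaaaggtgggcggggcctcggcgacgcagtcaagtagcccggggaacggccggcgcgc
Calr: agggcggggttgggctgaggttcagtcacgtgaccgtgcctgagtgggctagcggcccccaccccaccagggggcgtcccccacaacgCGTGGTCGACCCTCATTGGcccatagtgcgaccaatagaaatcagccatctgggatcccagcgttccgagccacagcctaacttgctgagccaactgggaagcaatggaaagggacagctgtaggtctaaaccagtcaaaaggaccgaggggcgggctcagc
The match in Hspa5 spans bases -65 to -47 from the start. Hsp90b1 holds 2 matches, at -212 to -194 and, on the other strand, at -107 to -89. The matches in Calr (-162 to -144) and Creld2 (-126 to -108) lie on the strand opposite to the gene, and the ERSE-II of Herpud1 spans -52 to -42. A match is a run of letters and was not tested as a binding site.

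Library totals ran from 8.62 to 21.9 M counts, and expression is given in CPM, counts scaled to the library total after trimmed mean normalisation. The fat marker Adipoq was at 1390 CPM or more in every library. Markers of other tissue differed between libraries within groups. The summed level of 7 skeletal muscle genes spanned 164 to 7916 CPM in Aged BAM15, 16.7 to 18736 CPM in Aged CTRL, 25.8 to 51421 CPM in Young BAM15 and 20.7 to 47522 CPM in Young CTRL. The summed level of 8 B cell genes spanned 1.61 to 251 CPM in Aged BAM15, 6.47 to 250.2 CPM in Aged CTRL, 2.00 to 1078 CPM in Young BAM15 and 1.10 to 313 CPM in Young CTRL. In bulk tissue, a change in the number of cells of a type and a change in RNA per cell cannot be told apart.

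In 4 libraries, the mitochondrial ribosomal transcript mt-Rnr2 made up 0.121 to 0.257% of counts, against 0.722 to 2.26% in the other 20. These 4 came from mice Aged BAM15 2, Aged BAM15 5, Aged CTRL 2 and Young CTRL 4, so no Young BAM15 mouse was among them. They also had the largest totals (18.4 to 21.9 M against 8.62 to 17.9 M counts) and the largest share of transcripts of the mitochondrial genome (12.0 to 21.4% against 4.82 to 9.27%). Of the 10 genes, 5 were lower in all 4 of these libraries than in any of the other 20, against 8.76% of all 15939 genes tested, and 0 were higher than in any of the other 20, against 6.91% of all genes. What caused the difference was not tested. Results below are given over 24 libraries, without these 4, or both, and several genes outside the 10 are given for a single set.

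Pdia4 (chr6:47796141-47813430), which encodes the disulfide isomerase ERp72, differed most between these libraries. It had 1.51 and 0.461 CPM in Aged BAM15 2 and 5, 0.624 CPM in Aged CTRL 2 and 0.782 CPM in Young CTRL 4, from 8 to 22 counts per library, against 17.8 to 54.0 CPM in the other 20. The level in these 4 mice was 15.9 to 52.3 times lower than the median of the other mice of the same group, and no mouse lay between 1.51 and 17.8 CPM. Herpud1 (chr8:94386438-94395377), a membrane protein of ER-associated degradation, had 11.4 to 27.7 CPM in the 4 and 52.6 to 103 CPM in the 20. Calr (chr8:84841850-84846934), the calcium-binding lectin chaperone calreticulin, had 73.0 to 231 CPM in the 4 and 322 to 703 CPM in the 20. Hsp90b1 (chr10:86690209-86705509), the HSP90 of the ER known as GRP94, had 78.8 to 153 CPM in the 4 and 247 to 468 CPM in the 20. Manf (chr9:106838312-106891979), a small secreted protein that binds the chaperone BiP, had 21.1 to 37.8 CPM in the 4 and 38.0 to 91.5 CPM in the 20, so these ranges nearly touched. In the annotation, exons of Manf share 146 bases with Dcaf1 and 166 bases with 4930524O07Rik, both on the other strand, and exons of Hsp90b1 share 415 bases with the pseudogene 1810014B01Rik on the other strand. On the same strand, exons of Hsp90b1 share 133 bases with Gm25745 and 84 bases with Gm15344. Exons of Manf share 14 bases with Rbm15b on its strand, and those of Pdia4 share 14 bases with Mir704. Strand cannot separate these same-strand pairs. Whether counting used strand is not given in the sources used here, so counts of all these pairs may not be fully separated.

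The other 5 genes did not separate the 4 libraries from the 20. Xbp1 (chr11:5520659-5525893) was below the other mice of its group in each of the 4, at 62.2 to 93.4 CPM, and overlapped the 20, which began at 88.9 CPM. Dnajb9 (chr12:44205559-44210326), the BiP cochaperone ERdj4, was above the rest of its group in 3 of the 4, at 27.0 and 35.4 CPM in Aged BAM15 2 and 5 and 32.2 CPM in Aged CTRL 2, and within the range of its group in Young CTRL 4 at 16.2 CPM. Creld2 (chr15:88819646-88826683), a secreted protein of the ER with EGF-like domains, was above the rest of its group in Aged BAM15 5 at 21.3 CPM and in Young CTRL 4 at 24.2 CPM. Sdf2l1 (chr16:17130138-17132383), a partner of BiP and its cochaperone ERdj3, was below its group in Aged BAM15 2 and 5 at 3.99 and 5.88 CPM, and within its group in the other two. Hspa5 (chr2:34771970-34777547), which encodes BiP, the HSP70 of the ER that holds the sensors inactive, went both ways: it was lowest of all mice in Aged CTRL 2 at 232 CPM and highest of all mice in Young CTRL 4 at 1114 CPM. These 4 libraries therefore did not share 1 direction over the 10 genes. Of 88 other genes of ER folding, 6 were lower and 7 were higher in all 4 than in any of the other 20.

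**Figure D1:**
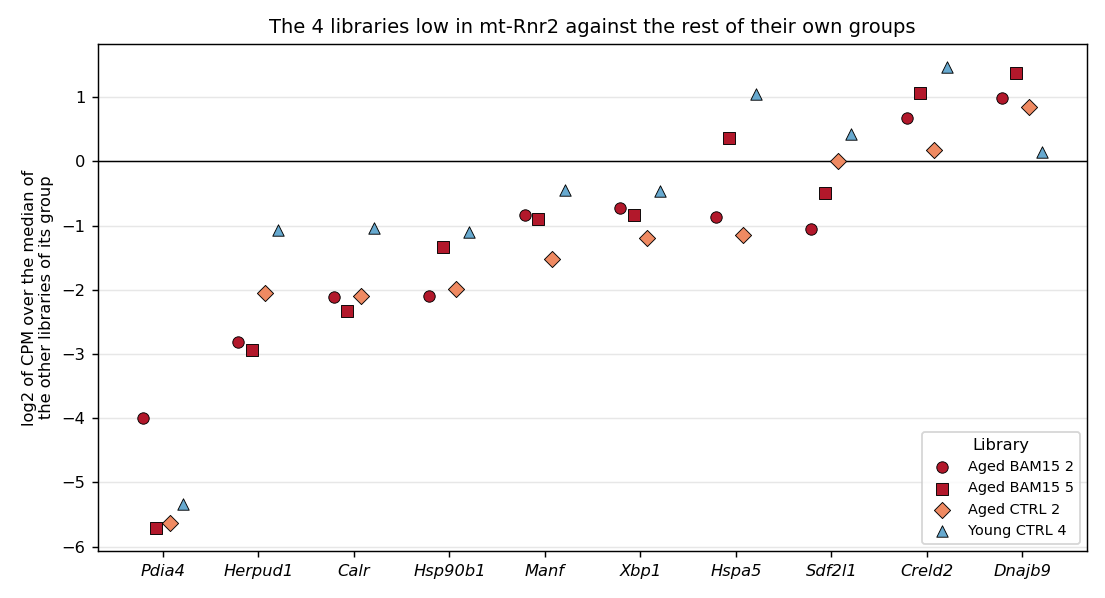
Level of each gene in each of the 4 libraries low in mt-Rnr2, as the log2 ratio of its CPM to the median CPM of the other libraries of the same group (vertical axis), with genes on the horizontal axis in order of their median and 1 symbol per library. Pdia4 lies between -5.71 and -3.99, Herpud1, Calr, Hsp90b1, Manf and Xbp1 lie below 0 in all 4, and Dnajb9 and Creld2 lie above 0 in all 4.

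Over the other 20 libraries the levels were close together, and the highest mouse had 1.89 times the CPM of the lowest for Hspa5 and for Hsp90b1, and 4.01 times for Creld2, the widest of the 10. The coefficient of variation over the 20 had a median of 23.2% for the 10 genes and 27.7% for the 10869 genes of at least 5 CPM. Hsp90b1 varied least, at 15.4%, and Dnajb9 most, at 30.7%.

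Among the folding chaperones, Hspa5 had 573, 287, 512, 521 and 668 CPM in Aged BAM15 mice 1 to 5, against 232, 493 and 779 CPM (lowest, median and highest) in Aged CTRL. It had 411, 472 and 604 CPM in Young BAM15, against 450, 556 and 1114 CPM in Young CTRL. All 4 groups overlapped, and over 24 libraries the Young BAM15 mice, none of them low in mt-Rnr2, covered the narrowest range. Without the 4 libraries, the 3 remaining Aged BAM15 mice covered the narrowest, 512 to 573 CPM. Hsp90b1 averaged 253 ± 133 CPM over 5 Aged BAM15 mice (SD), 281 ± 116 CPM over 6 Aged CTRL mice (SD), 339 ± 19.7 CPM over 6 Young BAM15 mice (SD) and 329 ± 103 CPM over 7 Young CTRL mice (SD). Over the other 20 mice it averaged 349 ± 13.2 CPM over 3 Aged BAM15 mice (SD), 322 ± 67.8 CPM over 5 Aged CTRL mice (SD), 339 ± 19.7 CPM over 6 Young BAM15 mice (SD) and 358 ± 74.7 CPM over 6 Young CTRL mice (SD). The 4 means then lay within the spread of the mice. Calr averaged 408 ± 113, 467 ± 136, 451 ± 91.4 and 489 ± 90.6 CPM over the same 20 mice, in the same order of groups.

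Of the BiP cochaperones, Dnajb9 had 18.7, 27.0, 13.6, 9.42 and 35.4 CPM in Aged BAM15, against 13.9, 18.0 and 32.2 CPM (lowest, median and highest) in Aged CTRL. It had 7.89, 11.9 and 14.3 CPM in Young BAM15, against 8.73, 15.6 and 19.5 CPM in Young CTRL. The 2 highest Aged BAM15 values and the highest Aged CTRL value came from libraries low in mt-Rnr2. Sdf2l1 had 9.27, 3.99, 6.73, 8.26 and 5.88 CPM in Aged BAM15, against 7.55, 10.7 and 12.1 CPM in Aged CTRL. It had 7.96, 11.1 and 13.1 CPM in Young BAM15, against 6.32, 9.81 and 13.4 CPM in Young CTRL. In Aged BAM15, 3 of 5 mice lay below the lowest Aged CTRL mouse, and 2 of these 3 were libraries low in mt-Rnr2.

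Herpud1 had 60.5, 12.4, 103, 87.2 and 11.4 CPM in Aged BAM15, against 18.7, 76.2 and 87.9 CPM (lowest, median and highest) in Aged CTRL. It had 55.1, 79.4 and 99.1 CPM in Young BAM15, against 27.7, 56.0 and 65.1 CPM in Young CTRL. In Young BAM15, 4 of 6 mice lay above every Young CTRL mouse. Pdia4 without the 4 libraries averaged 25.9 ± 9.05 CPM over 3 Aged BAM15 mice (SD), 33.7 ± 5.93 CPM over 5 Aged CTRL mice (SD), 40.7 ± 8.66 CPM over 6 Young BAM15 mice (SD) and 32.9 ± 6.20 CPM over 6 Young CTRL mice (SD). Manf had 42.9, 24.1, 57.1, 42.1 and 22.9 CPM in Aged BAM15, against 21.1, 58.3 and 91.5 CPM in Aged CTRL, 38.0, 48.6 and 58.8 CPM in Young BAM15 and 37.8, 48.7 and 79.8 CPM in Young CTRL. Creld2 averaged 14.3 ± 5.41 CPM over 5 Aged BAM15 mice (SD), 10.5 ± 1.13 CPM over 6 Aged CTRL mice (SD), 10.4 ± 3.42 CPM over 6 Young BAM15 mice (SD) and 10.8 ± 6.62 CPM over 7 Young CTRL mice (SD). Xbp1 averaged 120 ± 36.1, 139 ± 52.5, 114 ± 21.9 and 115 ± 20.6 CPM in the same order. For each of the 10 genes, the mice of the compared groups overlapped in every comparison.

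**Figure D2:**
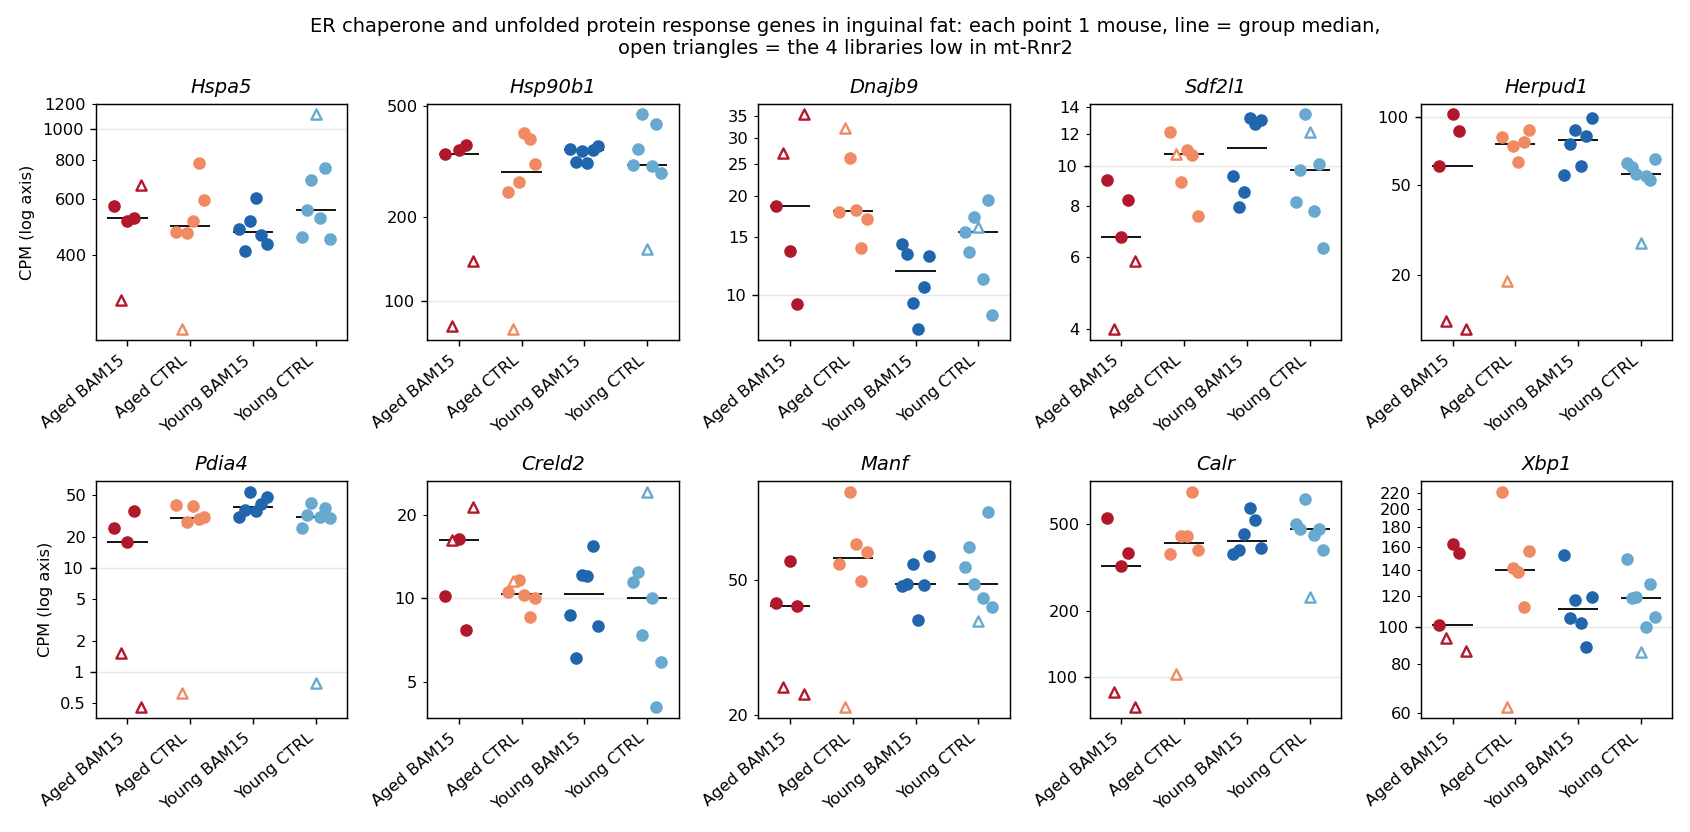
CPM of each of the 10 genes (log axis, 1 panel per gene) in the 4 groups, with 1 point per mouse, a line at the group median and open triangles for the 4 libraries low in mt-Rnr2. The triangles lie far below the circles for Pdia4 (0.461 to 1.51 CPM against 17.8 to 54.0 CPM), and the groups overlap in every panel.

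In the fit across all genes (edgeR's quasi-likelihood test with Benjamini-Hochberg adjustment, called at an adjusted p under 0.05), 0 of the 10 genes were called with age, where 0.207% of all genes were called. With BAM15, 0 of the 10 were called in aged mice and 0 in young mice, where 0% of all genes were called in either. The difference between both BAM15 effects had 0 calls among the 10, against 0% of all genes. The 4 libraries widened the error of these values: over 24 libraries the 95% interval lay within a 2-fold change either way for 7 of the 10 genes with age, for 4 with BAM15 in aged mice and for 8 with BAM15 in young mice, and over 20 libraries for 10, 9 and 10. At an unadjusted p under 0.05, the counts over 24 libraries were 0 with age (8.43% of all genes), 2 with BAM15 in aged mice (9.10%), 0 in young mice (13.1%) and 1 for the difference (5.08%). DESeq2 also called 0 of the 10 with age (1.59% of the genes it tested), with BAM15 in aged mice (0.804%), in young mice (1.33%) and in the difference (0.218%), and limma-voom with quality weights called 0 of the 10 (0.910%, 6.06%, 3.96% and 0% of all genes).

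With age (Aged CTRL minus Young CTRL), the log2 changes of the 10 genes ran from -0.35 in Hspa5 to 0.52 in Dnajb9 over 24 libraries, with 5 above 0 and 5 below, a median of 0.03 and a median of -0.04 over all genes. Dnajb9 had the smallest p, with a log2 change of 0.52 ± 0.272 (SE), and 5 of 6 Aged CTRL mice lay above the mean of Young CTRL (unadjusted p = 0.0691, adjusted p = 0.642, edgeR). Without the 4 libraries, 7 of the 10 lay above 0, with a median of 0.17 against -0.04 over all genes, and 79 genes were called (0.477%), none of them among the 10. Herpud1 then had the smallest p: it averaged 77.0 ± 9.22 CPM over 5 Aged CTRL mice (SD) and 58.6 ± 4.83 CPM over 6 Young CTRL mice (SD), a log2 change of 0.40 ± 0.155 (SE) with 5 of 5 aged mice above the young mean (unadjusted p = 0.0174, adjusted p = 0.312, edgeR). Xbp1 had 0.36 ± 0.180 (SE) over the same 20 libraries (adjusted p = 0.471, edgeR), and Hspa5, the usual marker of the response, had -0.01 ± 0.183 (SE) with a 95% interval of -0.40 to 0.38.

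With BAM15 in aged mice (Aged BAM15 minus Aged CTRL), 8 of the 10 genes lay below 0 over 24 libraries, where 48.3% of all genes did. The median log2 change was -0.25 against 0.02 over all genes. Over 20 libraries 7 of the 10 lay below 0 (48.5% of all genes), with a median of -0.17 against 0.02. Of the 4 libraries, Aged BAM15 2, Aged BAM15 5 and Aged CTRL 2 are in this comparison. Sdf2l1 averaged 6.83 ± 2.06 CPM over 5 Aged BAM15 mice (SD) and 10.2 ± 1.61 CPM over 6 Aged CTRL mice (SD), a log2 change of -0.58 ± 0.249 (SE) with 5 of 5 treated mice below the control mean (unadjusted p = 0.0285, adjusted p = 0.488, edgeR). Manf averaged 37.8 ± 14.4 CPM over 5 Aged BAM15 mice (SD) and 57.1 ± 22.8 CPM over 6 Aged CTRL mice (SD), a log2 change of -0.60 ± 0.287 (SE) with 4 of 5 treated mice below (unadjusted p = 0.0489, adjusted p = 0.548, edgeR). Without the 4 libraries, which leaves 3 treated mice, the log2 change was -0.32 ± 0.266 (SE) for Sdf2l1 and -0.44 ± 0.222 (SE) for Manf (adjusted p = 0.691 and 0.460, edgeR). Pdia4 had -0.83 ± 0.834 (SE) over 24 libraries and -0.38 ± 0.230 (SE) over 20, so its value and its error both rested on the 4. Hspa5 had 0.01 ± 0.276 (SE) over 24 libraries and -0.08 ± 0.221 (SE) over 20, and Hsp90b1 had -0.15 ± 0.362 (SE) and 0.12 ± 0.197 (SE).

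With BAM15 in young mice (Young BAM15 minus Young CTRL), 4 of the 10 genes lay above 0 and 6 below, over 24 as over 20 libraries, with median log2 changes of -0.01 and -0.10, against 0.03 over all genes in both. Of the 4 libraries, 1 is in this comparison, Young CTRL 4. Hspa5 averaged 484 ± 68.5 CPM over 6 Young BAM15 mice (SD) and 649 ± 235 CPM over 7 Young CTRL mice (SD), and its log2 change was -0.42 ± 0.255 (SE) over 24 libraries and -0.26 ± 0.175 (SE) over 20 (adjusted p = 0.486 and 0.419, edgeR). Herpud1 had a log2 change of 0.51 ± 0.399 (SE) over 24 libraries and 0.37 ± 0.148 (SE) over 20, where 5 of 6 treated mice lay above the control mean (unadjusted p = 0.0196, adjusted p = 0.185, edgeR). The B cell score was 4.58 to 6.62 in 5 of the 6 Young BAM15 libraries, and 4.87 and 4.78 in Young CTRL 1 and 5. It was negative in the remaining young mice. With this score as a covariate the BAM15 value for Herpud1 over 20 libraries was 0.17 ± 0.161 (SE) (adjusted p = 0.864, edgeR). Its age value over 20 libraries was 0.40 ± 0.155 (SE) without the covariate and 0.42 ± 0.139 (SE) with it. Score and treatment partly went together in young mice, so this fit cannot separate them. Whether B cell content changed Herpud1 was not tested. The age and BAM15 values of Herpud1 share the Young CTRL mice. In the difference between both BAM15 effects, Sdf2l1 had -0.74 ± 0.336 (SE) over 24 libraries (unadjusted p = 0.0374, adjusted p = 0.899, edgeR) and -0.52 ± 0.338 (SE) over 20, and Pdia4 had -1.35 ± 1.12 (SE) over 24 and -0.67 ± 0.292 (SE) over 20 (unadjusted p = 0.0318 over 20, edgeR).

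In treated old mice against untreated young ones (Aged BAM15 minus Young CTRL), 205 genes were called over 24 libraries (1.29%) and 105 over 20 (0.634%), and 0 of the 10 were among them in either fit. DESeq2 (5.48% of the genes it tested) and limma-voom (10.2% of all genes) also called 0 of the 10. Sdf2l1 had the smallest p over 24 libraries, with a log2 change of -0.51 ± 0.242 (SE) and 5 of 5 Aged BAM15 mice below the Young CTRL mean (adjusted p = 0.292, edgeR). Over 20 libraries its value was -0.20 ± 0.257 (SE). Herpud1 had 0.02 ± 0.421 (SE) over 24 libraries and 0.52 ± 0.178 (SE) over 20, with 3 of 3 Aged BAM15 mice above the Young CTRL mean (unadjusted p = 0.00841, adjusted p = 0.180, edgeR).

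**Figure D3:**
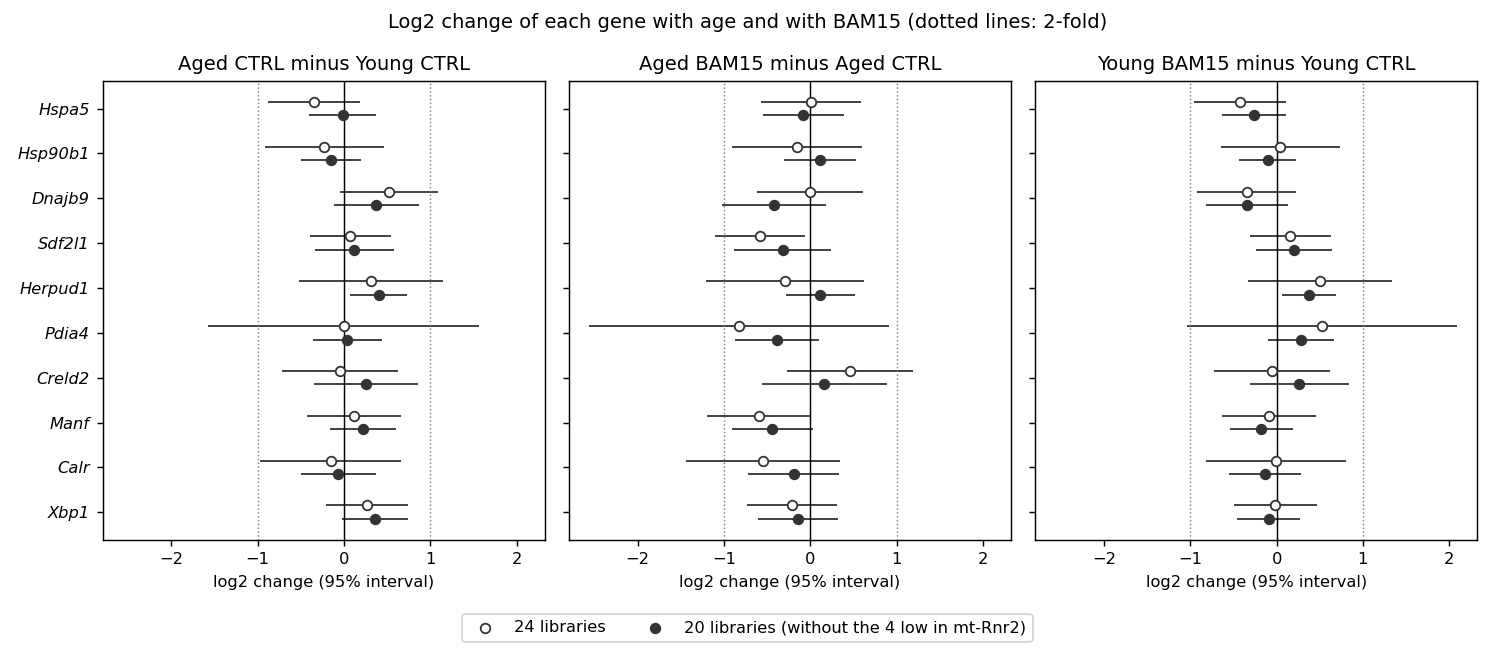
Log2 change of each gene (points) with its 95% interval (lines) for age, for BAM15 in aged mice and for BAM15 in young mice, over 24 libraries (open points) and without the 4 libraries low in mt-Rnr2 (filled points), with dotted lines at a 2-fold change. The interval of Pdia4 runs from -2.57 to 0.91 in aged mice with BAM15 over 24 libraries and from -0.87 to 0.10 over 20, and most intervals include 0.

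Whether the 10 genes vary together from mouse to mouse was asked within groups, on log2 CPM after the group mean was subtracted. The test was planned over all 24 libraries, and none of the 9 genes set against Hspa5 passed it there. The smallest adjusted p was 0.317 for r and 0.326 for rho (permutation test), and Calr had r = 0.40. Because the 4 libraries lay apart from the 20 in several of the 10 genes, the relation is described below over the 20. Of the 9 genes set against Hspa5, Calr (r = 0.67, rho = 0.54) and Hsp90b1 (r = 0.66, rho = 0.57) were closest, and without the 2 mice farthest from the median of Hspa5 r was 0.65 and 0.53. By a permutation test adjusted over the 9 genes, Calr had an adjusted p = 0.0239 for r and 0.168 for rho, and Hsp90b1 had 0.0788 for r and 0.168 for rho. Sdf2l1 had r = 0.43, while Dnajb9 (-0.02), Manf (-0.08), Creld2 (-0.22), Xbp1 (-0.28) and Herpud1 (-0.31) had values of r at or below 0. Over all 45 pairs of the 10 genes, 24 had r above 0, and the median was 0.03. Outside those with Hspa5, the largest were Dnajb9 with Manf (r = 0.65, rho = 0.64, and r = 0.53 without the 2 mice farthest in Dnajb9), Calr with Xbp1 (r = -0.60, rho = -0.48, and -0.57 without the 2 farthest) and Sdf2l1 with Calr (r = 0.59, rho = 0.53, and 0.45 without the 2 farthest). No pair passed a permutation test adjusted over the 45, where the smallest adjusted p was 0.118 for r and 0.306 for rho. Over the same 20 mice, r with a score of 7 macrophage genes was 0.60 for Calr, -0.58 for Xbp1 and 0.56 for Sdf2l1. It was 0.45 for Hspa5, 0.38 for Hsp90b1, 0.05 for Dnajb9 and -0.09 for Manf. With a score of 7 adipocyte genes, r was 0.52 for Hspa5, 0.39 for Hsp90b1 and -0.0044 for Calr. Whether cell content accounts for these pairs was not tested.

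**Figure D4:**
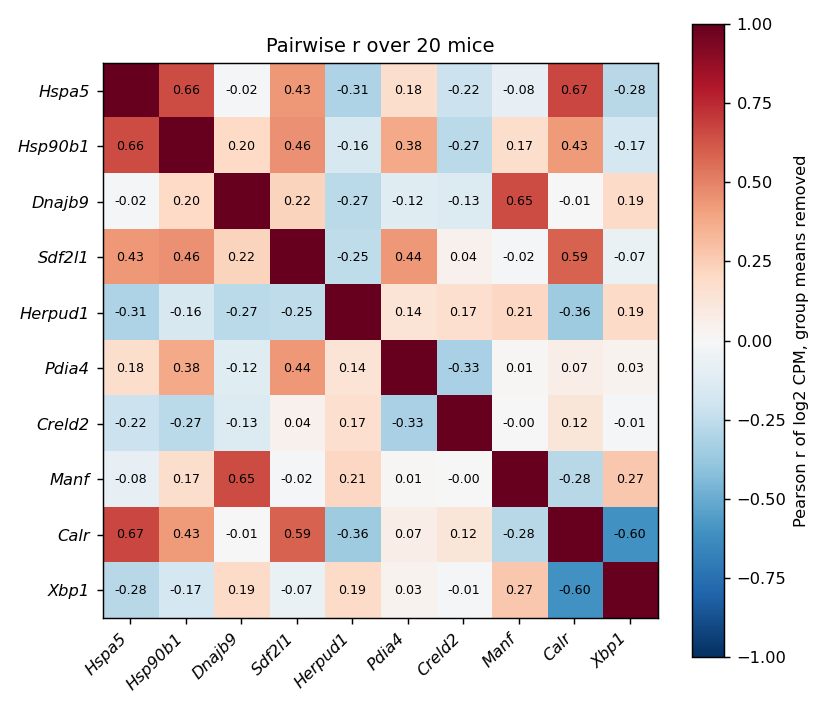
Pearson r of log2 CPM for each pair of the 10 genes over 20 mice, after the group mean was subtracted, on a scale from -1 (blue) to 1 (red). Hspa5, Hsp90b1, Sdf2l1 and Calr have r between 0.43 and 0.67 with each other, and Herpud1, Creld2 and Xbp1 have r at or below 0 with Hspa5.

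The genes outside the group with the highest mean r to the 10, among 10414 genes of at least 5 CPM, were Mthfd1, Ms4a4d, Slc22a4, Itgam and the Golgi matrix gene Golga2 over the 20 libraries (mean r 0.27 to 0.31). For Xbp1 alone the closest over 20 libraries was Apoe (r = 0.84), which was the second closest over 24 libraries (r = 0.89). For Hspa5 alone the closest over 20 was Smim4 (r = 0.92), and over 24 it was Bnip2 (r = 0.91). These values describe the order of genes in these mice and were not tested.

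Of the other genes of ER protein folding and the unfolded protein response, 88 were measured. With age 0 of the 88 were called (0.207% of all genes), and with BAM15 0 were called in aged and 0 in young mice (0% in either). Other tools called some of them with BAM15. DESeq2 called 0 of the 88 with age (1.59% of the genes it tested), 1 in aged mice (Atf3, 0.804%) and 1 in young mice (Surf4, 1.33%). Limma-voom with quality weights gives libraries that stand apart less weight. It called 0 with age (0.910% of all genes), 11 in aged mice (6.06%) and 6 in young mice (3.96%). All but 1 of these 17 limma-voom calls were lower with BAM15, and Sec62, part of the translocation channel, was higher in aged mice. Surf4, Eif2s1 and Edem1 were called at both ages, so the calls come from fewer genes. The share of all limma-voom calls that were lower was not counted. With age, 40 of 88 lay below 0 over 24 as over 20 libraries, with medians of 0.03 in both. With BAM15 in young mice, 69 of 88 lay below 0 over 24 libraries and 71 of 88 over 20, where 47.3% and 47.7% of all genes did, with median log2 changes of -0.22 and -0.21. With BAM15 in aged mice, 57 of 88 lay below 0 over 24 libraries and 64 of 88 over 20, where 48.3% and 48.5% of all genes did, with medians of -0.12 and -0.23. At an unadjusted p under 0.05 over 20 libraries, 18 of 88 were lower in Young BAM15 (10.3% of all genes) and 14 of 88 in Aged BAM15 (5.41% of all genes). With the B cell score as a covariate over the 20 libraries, 63 of 88 lay below 0 in young mice with 9 lower at an unadjusted p under 0.05 (5.49% of all genes), and 64 of 88 in aged mice with 8 lower (4.24% of all genes). Genes of 1 pathway vary together, so these counts are a description.

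By role, the receptors and coats that carry cargo between ER and Golgi lay below 0 with BAM15 at both ages: 10 of 10 export and retrieval genes were below 0 in young mice and 9 of 10 in aged mice over 20 as over 24 libraries, with median log2 changes of -0.34 and -0.35 over 20 and of -0.40 and -0.17 over 24. Surf4, a cargo receptor, averaged 114 ± 21.3 CPM over 6 Young BAM15 mice (SD) and 190 ± 49.8 CPM over 7 Young CTRL mice (SD). Its log2 change there was -0.73 ± 0.200 (SE) over 24 libraries (adjusted p = 0.187, edgeR). In aged mice Surf4 averaged 121 ± 32.0 CPM over 5 Aged BAM15 mice (SD) and 166 ± 34.2 CPM over 6 Aged CTRL mice (SD), a log2 change of -0.45 ± 0.216 (SE). Of 15 degradation genes, 14 were below 0 in young and 14 in aged mice over 20 libraries, with medians of -0.30 and -0.23. Over 24 libraries 12 and 9 were below 0, with medians of -0.27 and -0.0067, so the count in aged mice depended on the 4 libraries. Edem1, which recognises misfolded glycoproteins, had over 20 libraries -0.71 ± 0.193 (SE) in young and -0.70 ± 0.249 (SE) in aged mice (adjusted p = 0.103 and 0.341, edgeR). Of 14 genes of entry into the ER, 13 were below 0 in young and 11 in aged mice over 20 libraries, with medians of -0.20 and -0.22, and 13 and 8 over 24, with medians of -0.21 and -0.05. Ssr3, a translocon-associated protein, averaged 123 ± 16.2 CPM over 6 Young BAM15 mice (SD) and 184 ± 30.6 CPM over 7 Young CTRL mice (SD). Its log2 change was -0.59 ± 0.242 (SE) over 24 libraries (adjusted p = 0.313, edgeR).

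Of 9 other genes of the ER HSP70 system, 8 were below 0 with BAM15 in young and 5 in aged mice over 20 libraries, and 7 and 7 over 24. Of 12 other oxidoreductase genes, 10 were below 0 in young and 8 in aged mice over 20 libraries, and 9 and 6 over 24. The sensors and the lectin cycle had median log2 changes of -0.13 to 0.03 with BAM15 over 20 libraries. Of 10 sensor and membrane-bound transcription factor genes, 5 were below 0 in young and 7 in aged mice over 20 libraries, and 6 and 8 over 24, where their medians were -0.03 and -0.15. The smallest p belonged to Creb3 in young mice, with -0.52 ± 0.179 (SE) over 24 libraries (adjusted p = 0.267, edgeR). Ern1, which encodes IRE1, had 0.44 ± 0.226 (SE) with age over 24 libraries (adjusted p = 0.630, edgeR). Of 10 genes of the PERK arm, 9 lay above 0 with age over 24 libraries (median log2 change 0.45) and 7 over 20 (0.29). With BAM15, 6 of the 10 lay below 0 in aged mice (median -0.14 over 24 and -0.29 over 20) and 6 in young mice (median -0.04 over both). The stress transcription factor Atf3 of this arm averaged 4.86 ± 2.96 CPM over 5 Aged BAM15 mice (SD) and 16.0 ± 5.83 CPM over 6 Aged CTRL mice (SD), and 4.71 ± 2.79 CPM over 6 Young BAM15 mice (SD) and 9.01 ± 3.93 CPM over 7 Young CTRL mice (SD). Its log2 change was -1.71 ± 0.467 (SE) in aged mice, where 5 of 5 treated mice lay below the control mean, and -0.93 ± 0.421 (SE) in young mice (adjusted p = 0.257 and 0.347, edgeR, 24 libraries). Sesn2, a stress-induced regulator of metabolism, had -0.90 ± 0.274 (SE) in aged mice (adjusted p = 0.312, edgeR), and Eif2s1, which encodes the target of PERK, had -0.60 ± 0.182 (SE) in young mice (adjusted p = 0.203, edgeR). Trib3, a pseudokinase induced by ATF4, had 0.71 ± 0.250 (SE) with age (adjusted p = 0.333, edgeR).

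The only other gene of the pathway that edgeR called in any comparison over 24 libraries was Ssr4, a translocon-associated protein, in Aged BAM15 minus Young CTRL. It averaged 70.3 ± 23.3 CPM over 5 Aged BAM15 mice (SD) and 119 ± 16.1 CPM over 7 Young CTRL mice (SD), and fell by 0.76 ± 0.193 (SE) on the log2 scale, with 5 of 5 treated mice below (adjusted p = 0.0485, edgeR). Without the 4 libraries its log2 change was -0.60 ± 0.193 (SE) (adjusted p = 0.148, edgeR), and the call was lost when any single one of the mice Aged BAM15 2, 3, 4 or 5 or Young CTRL 1, 2, 3, 5, 6 or 7 was left out. DESeq2 and limma-voom called Ssr4 in this comparison too, among 6 and 10 of the 88 genes. The shares of all genes called there were 1.29% by edgeR, 5.48% of those tested by DESeq2 and 10.2% by limma-voom.

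**Figure D5:**
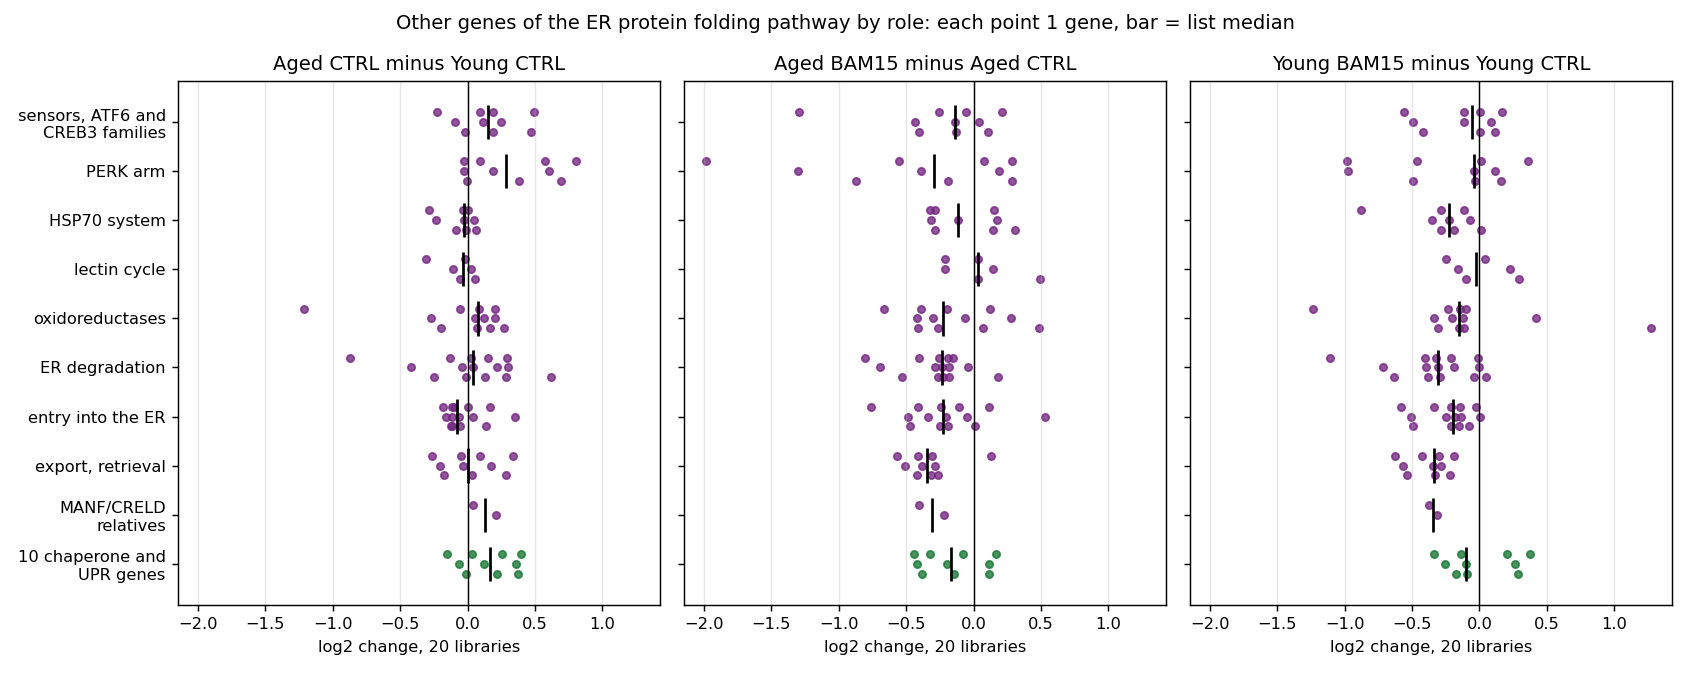
Log2 change of the 88 other genes of ER protein folding by role (purple, 1 point per gene) and of the 10 chaperone and response genes (green) for age, BAM15 in aged mice and BAM15 in young mice, over 20 libraries, with a bar at the median of each list. The export and retrieval genes have medians of -0.35 and -0.34 with BAM15 in aged and in young mice, and no list has a median beyond 0.29 with age.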

How the data were processed

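RNA was measured by QuantSeq, which reads the 3′ end of transcripts, in 24 inguinal fat samples. The authors deposited a table of raw counts per gene and a second table of scaled values (a signal), which equal the raw ones over a size factor for each library. The second was checked against the counts and not tested. R 3.4.3, DESeq2 1.18.1 and build GRCm38 are named in the submitters' processing notes, and which aligner, counting program or annotation was used is not given in the sources used here. The sums of counts were 8.62 to 21.9 M per library.

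Here edgeR 4.0.16 (R 4.3.3) kept 15939 of 17541 genes (filterByExpr), scaled them by trimmed means and fitted 1 robust quasi-likelihood model to the 4 groups (20 residual degrees of freedom, biological coefficient of variation 0.621). P-values were adjusted by Benjamini-Hochberg over all genes kept and called under 0.05. Intervals are 95%, and a prior count of 2 was added before log2. The script was tested on simulated data. Symbols came from the deposited table for 14606 genes and from the reference for 2888. Positions are from GENCODE vM21 and promoters from RefSeq, both on GRCm38. Correlations used 100000 permutations within groups, two-sided, and those over all 45 pairs were added after seeing the data. No 2 libraries of a group agreed within sampling noise (chi-square per gene 21.2 to 702 over 61 pairs). Each library is labelled as a separate mouse, so p-values measure the spread between mice, and same-numbered mice are not paired.

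The 10 genes, the pathway lists and the markers were chosen with earlier results of these data known. The text names all 10, every other pathway gene that edgeR called, the 2 with the smallest p of each list in each of the comparisons of age and BAM15 where they carry the list, and the 5 genes closest to the 10 in pattern, of which the order over 24 libraries is not reported here. Sec62 and Hspb1 were named after their values were seen. Alternatives were other scalings, filters, DESeq2 1.42.0, limma 3.58.1 voom with quality weights, the compared groups alone, a replicate block, B cell and plasma cell scores as covariates, and leaving out libraries. The B cell score over 20 libraries was added after seeing the data.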

Additional observations from a re-analysis of the deposited data

Results flagged for a closer look

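In 5 of 40 combinations of gene and group, 1 mouse stood apart from the rest of its group by the gap to its nearest neighbour relative to the group's range. Chance alone gives about 1 in 20 for independent combinations, but these share libraries, and the share over all genes was not computed. All 5 lie in libraries low in mt-Rnr2. In the 4 such libraries, 8.76% of all genes lay wholly below the other 20 and 6.91% wholly above. In Aged CTRL 2, Herpud1 was lowest of its group at 18.7 CPM, with the next mouse at 63.0 CPM, and Pdia4 was lowest at 0.624 CPM, with the next at 27.6 CPM. In Young CTRL 4, Herpud1 was lowest at 27.7 CPM (next 52.6 CPM), Pdia4 was lowest at 0.782 CPM (next 24.4 CPM) and Creld2 was highest at 24.2 CPM (next 12.4 CPM). Aged BAM15, where 2 of 5 mice had such libraries, had no such single mouse.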

How the results depend on the processing

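None of the 10 genes was called in any of the 5 comparisons under any alternative run, and of their 50 log2 changes 23 changed sign in at least 1 of them, none past the threshold in either sign. The reversed values began at a size of at most 0.51 over 24 libraries, and the cause was not tested. Without the 4 libraries low in mt-Rnr2, the log2 changes that reversed were Pdia4 0.036 and Creld2 0.26 with age, Hspa5 -0.080, Hsp90b1 0.12 and Herpud1 0.12 with BAM15 in aged mice, Hsp90b1 -0.10 and Creld2 0.26 with BAM15 in young mice, Hsp90b1 0.22, Dnajb9 -0.075 and Creld2 -0.099 in the difference of both BAM15 effects, and Dnajb9 -0.040 in Aged BAM15 minus Young CTRL. With the B cell score added as a covariate over the same 20 libraries, they were Pdia4 0.036 and Creld2 0.31 with age, Hsp90b1 0.22 with BAM15 in aged mice, Creld2 0.060 in young mice, Hsp90b1 0.17, Dnajb9 -0.16 and Creld2 -0.045 in the difference, and Hspa5 0.0025 and Hsp90b1 0.054 in Aged BAM15 minus Young CTRL. Limma-voom with quality weights gave Pdia4 0.13 and Creld2 0.18 with age, Hspa5 -0.032, Hsp90b1 0.064 and Herpud1 0.14 in aged mice, Hsp90b1 -0.047 in young mice, and Hsp90b1 0.11, Dnajb9 -0.29 and Xbp1 0.030 in the difference. The B cell covariate over 24 libraries gave Calr 0.075 in young mice and Herpud1 -0.12 in Aged BAM15 minus Young CTRL. The plasma cell covariate gave Pdia4 0.051 with age and Manf 0.013, Calr 0.24 and Xbp1 0.040 in young mice. Without the 2 libraries with skin keratin, Sdf2l1 was -0.064 with age, and Hsp90b1 was -0.012 and Xbp1 0.048 in young mice. Upper-quartile factors gave Pdia4 0.00014 with age, and the compared groups alone gave Herpud1 -0.0084 in Aged BAM15 minus Young CTRL.

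With the replicate block, Sdf2l1 was -0.0019 with age and Herpud1 -0.11 in Aged BAM15 minus Young CTRL, 0 of the 10 genes were called, and 5 genes of all were called with age and 17 in Aged BAM15 minus Young CTRL, against 33 and 205 without it. Replicate numbers name separate mice: same-numbered mice of different groups had a median r of -0.04 over 33 pairs, and other pairs 0.00 over 182, so the block has no basis in the design.

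With 1 library left out at a time, log2 changes that crossed 0 spanned, with age, Calr -0.38 to 0.045, Creld2 -0.19 to 0.29, Manf -0.071 to 0.28, Pdia4 -0.22 to 0.25 and Sdf2l1 -0.0067 to 0.17. With BAM15 in aged mice they spanned Dnajb9 -0.28 to 0.18, Hsp90b1 -0.34 to 0.063 and Hspa5 -0.14 to 0.17, and in young mice Calr -0.12 to 0.11, Creld2 -0.20 to 0.28, Hsp90b1 -0.080 to 0.15, Manf -0.15 to 0.040 and Xbp1 -0.15 to 0.059. Hsp90b1 spanned -0.39 to 0.052 in the difference, and Herpud1 -0.34 to 0.28 and Xbp1 -0.082 to 0.15 in Aged BAM15 minus Young CTRL.

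Of the 88 other genes of the pathway, DESeq2 called 1 with BAM15 in aged mice (0.804% of the genes it tested) and 1 in young mice (1.33%). In Aged BAM15 minus Young CTRL it called 6 (5.48%). Limma-voom called 11, 6 and 10 in the same order (6.06%, 3.96% and 10.2% of all genes). The 1 gene called in Aged BAM15 minus Young CTRL became 0 with upper-quartile factors, no filter, the compared groups alone, the replicate block, the B cell or plasma cell covariate, without the 2 skin keratin libraries and without the 4 libraries with or without the B cell covariate, and 0 to 3 with 1 library left out. Over all genes, DESeq2 called 271 with age, 140 with BAM15 in aged mice, 218 in young mice, 38 in the difference and 826 in Aged BAM15 minus Young CTRL. Limma-voom called 145, 966, 631, 0 and 1633. The age count was 18 with the compared groups alone, 4 without the 2 skin keratin libraries and 144 with the B cell covariate over 20 libraries. With 1 library left out, edgeR called 17 genes with BAM15 in aged mice without Aged CTRL 2 and 67 without Aged BAM15 1, 20 and 21 with age without Aged CTRL 6 and Aged CTRL 1, and in Aged BAM15 minus Young CTRL 46 without Aged BAM15 5 and 630 without Aged BAM15 1, each with 0 of the 10 genes. In Aged BAM15 minus Young CTRL the count was 29 with the compared groups alone, 131 with the plasma cell covariate, 86 without the skin keratin libraries and 103 with the B cell covariate over 20.

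Over 24 libraries r with Hspa5 was 0.23 for Herpud1, 0.13 for Creld2, 0.32 for Manf, 0.20 for Xbp1 and 0.40 for Calr. Without the 4 libraries it was -0.31, -0.22, -0.078, -0.28 and 0.67 in the same order, and without the 2 mice farthest in Hspa5 it was -0.16 for Creld2 and -0.10 for Xbp1. Pdia4 rests on 8 to 22 counts in each of the 4 libraries, although these had the largest totals.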

Other observations

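Chaperones of other compartments, chosen with the values of the ER genes known, were read from the same fits. Of 11 cytosolic heat shock genes, 0 were called in any comparison by edgeR. Over the 20 libraries 4 of 11 lay below 0 with age (median log2 change 0.05), 7 of 11 with BAM15 in aged mice (median -0.05) and 9 of 11 with BAM15 in young mice (median -0.22). Of 9 genes of mitochondrial chaperones and proteases, 0 were called, and 5, 6 and 7 lay below 0 in the same comparisons, with medians of -0.01, -0.12 and -0.15. In the 4 libraries low in mt-Rnr2, 3 of 11 cytosolic genes and 0 of 9 mitochondrial genes lay wholly below the other 20, against 5 of the 10 ER genes, 6 of the 88 other ER genes and 8.76% of all genes.

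Hspb1, a small heat shock protein of the cytosol, was named after its values were seen. Over the 20 libraries it had a log2 change of 0.87 ± 0.204 (SE) with age, with 5 of 5 aged mice above the Young CTRL mean (adjusted p = 0.0604, edgeR). With BAM15 in aged mice it had -0.75 ± 0.253 (SE), with 3 of 3 treated mice below the Aged CTRL mean (adjusted p = 0.316, edgeR). Over 24 libraries the values were 0.78 ± 0.578 (SE) and -1.17 ± 0.646 (SE), and the groups overlapped in both (adjusted p = 0.822 and 0.612, edgeR).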
